A study of Mus musculus with 20 samples.

Results

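BC_2 OSKM, the single mouse induced pluripotent stem cell (iPSC) line made with OSKM that the labels grade as good, was set against the 3 OSKM lines that they grade as poor, which are KH2_OSKM, Oct4-GFP OSKM#2 and Nanog-GFP OSKM#2. OSKM stands for the transcription factors Oct4, Sox2, Klf4 and Myc, which turn differentiated cells back into pluripotent ones. The arrays were chosen by the labelled factor set and grade, and they are 8 of the 20 in the series, 2 of BC_2 OSKM and 6 of the poor lines. All lines shared the factor set, growth in 2i medium (a medium with inhibitors of MEK and GSK3) without feeder cells, and no treatment. Total RNA was hybridised to Agilent arrays in 1 colour. The other 12 arrays came from 3 lines made with SNEL (Sall4, Nanog, Esrrb and Lin28) and 3 embryonic stem cell (ESC) lines, 2 arrays per line. The labels do not say how grade was measured, what BC_2 stands for, what cells the lines were made from, the age or strain of the source animals, or whether the arrays of a line are separate cultures. The arrays of a line were therefore averaged and n counts lines, so p-values measure only the spread between lines. Good grade rests on 1 line and cannot be told apart from anything else that is particular to that line.

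OSKM reprogramming has to switch on the cell's own pluripotency genes, silence the genes of the starting cell and leave genomic imprints as they were. Imprints are methylation marks that let only the maternal or only the paternal copy of a gene be read. The Dlk1-Dio3 imprinted cluster is known for losing its maternally read noncoding RNAs, Meg3 among them, in some mouse iPSC lines, and mouse iPSC lines that lost them have been reported to contribute less well to chimaeras and embryos.

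Levels are the log2 of the scanner's processed signal minus the log2 of that array's 75th percentile, so a gene at 0 lies at that percentile, and differences are BC_2 OSKM minus the mean of the 3 poor lines. On the BC_2 OSKM arrays 64.0% and 59.96% of probes were well above background, against 59.1% to 77.5% on the 6 poor arrays. Precision is limited by how few arrays and lines there are. The highest share belonged to the KH2_OSKM array of slide 1, against at most 68.3% on the other poor arrays. The 2 arrays of KH2_OSKM differed by a root mean square of 0.847 on the log2 scale, more than the 0.578 of BC_2 OSKM and the 0.458 and 0.532 of the other poor lines. Each of slides 1 and 2 held 1 array of BC_2 OSKM and 1 of each poor line, so every comparison could also be made within a slide. All 6 pluripotency markers were above background in all 4 lines. Of 8 fibroblast markers, 5 were detected on both BC_2 OSKM arrays and 4 on all poor arrays, and the log2 of their summed level was 1.30 in BC_2 OSKM and 0.80 to 1.72 in the poor lines. Postn and Lum were not above background in any OSKM line.

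Of 26646 genes tested, 4 rose and 6 fell in BC_2 OSKM relative to the poor lines at an adjusted p under 0.05 in limma, which is 0.0375% of the genes (0.015% higher, 0.0225% lower). Filip1 and Hsd11b1 rose, and Olfr224, 4930571B16Rik and Rint1 fell. The other 5 are transcript IDs and predicted loci. LOC100044317 rose by 4.26 on the log2 scale, with 1 of 6 poor arrays above background, and LOC100047047 by 2.65. The 3 transcripts were not well above background on either BC_2 OSKM array: ENSMUST00000111363 was at least 57.4-fold lower there, ENSMUST00000097468 at least 18.5-fold and ENSMUST00000098156 at least 7.51-fold. At an unadjusted p under 0.05 there were 1177 genes (4.42%), where 1332 would be reached by chance. The count depended on the lines: it was 0 without Nanog-GFP OSKM#2 (1094 at an unadjusted p under 0.05), 4 without Oct4-GFP OSKM#2 and 17 without KH2_OSKM. With the 4 OSKM lines alone it was 0 (1106 unadjusted), and without Nanog-GFP ESCs it was 1, without KH2 ESCs or Oct4-GFP ESCs 2, lines whose spread the fit borrows for BC_2 OSKM. Without the slide 1 array of BC_2 OSKM it was 45, and without its slide 2 array 15. Without the KH2_OSKM array of slide 1 there were 12 rises and 7 falls, which included all 10 genes. The split of 4 rises and 6 falls became 9 and 2 with normexp background correction, and 11 and 2 in the authors' value table. Over the alternatives with a test, the call was lost in 9 of 24 for Filip1, 14 of 25 for Hsd11b1, 11 of 24 for Olfr224, 8 of 24 for 4930571B16Rik and 9 of 25 for Rint1.

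Filip1, whose product binds the actin crosslinker filamin, had levels of -2.86 and -2.86 on the BC_2 OSKM arrays. On the poor arrays it had -7.23 and -6.66 in Nanog-GFP OSKM#2, -7.11 and -6.50 in Oct4-GFP OSKM#2, and -7.33 and -7.21 in KH2_OSKM. The groups did not overlap. The probe (mm9 chr9:79663392-79663451) was not well above background on any poor array, so only a bound can be given there, and Filip1 was at least 8.19-fold higher in BC_2 OSKM (limma adjusted p = 0.0376). The fitted difference of 4.15 became 1.48 with normexp correction and 2.01 in the authors' value table. Such bounds set the brighter group's mean against a floor for the dim group, which is the dimmest well-detected signal of each array, or the probe's own signal where that is larger.

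Hsd11b1, the enzyme that regenerates active glucocorticoid from its inert form, had -0.97 and -1.08 on the BC_2 OSKM arrays. The poor arrays had -4.57 and -4.80 in Nanog-GFP OSKM#2, -4.25 and -4.51 in Oct4-GFP OSKM#2, and -3.18 and -4.55 in KH2_OSKM. Every poor array lay below both BC_2 OSKM arrays, and the KH2_OSKM array of slide 1 was the highest of them. The rise of 3.28 ± 0.32 on the log2 scale (SE) had an adjusted p of 0.0442 in limma, and was 3.03 within slide 1 and 3.54 within slide 2. Its probe lies at mm9 chr1:195048169-195048228.

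Rint1, which takes part in vesicle tethering at the endoplasmic reticulum and in the G2/M checkpoint, had -2.90 and -2.77 on the BC_2 OSKM arrays. Levels on the poor arrays were 0.06 and 0.04 in Nanog-GFP OSKM#2, -0.19 and -0.15 in Oct4-GFP OSKM#2, and -0.04 and 0 in KH2_OSKM. All 6 poor arrays lay within a narrow band far above BC_2 OSKM. The fall of -2.79 ± 0.26 (SE; limma adjusted p = 0.0397) was read from 1 probe at mm9 chr5:23326056-23326115. Olfr224, an olfactory receptor gene on chromosome 11, had -4.47 and -5.66 in BC_2 OSKM, of which 1 array was above background, against 1.27 and 1.23 in Nanog-GFP OSKM#2, 2.73 and 2.68 in Oct4-GFP OSKM#2, and 1.12 and 1.21 in KH2_OSKM. That fall was -6.78 ± 0.62 (SE; limma adjusted p = 0.0397). 4930571B16Rik, a locus of unstated function with its probe at mm9 chr17:55702746-55702805, was not well above background on the BC_2 OSKM arrays (-7.99 and -7.62) and lay between -4.56 and -3.10 on the poor arrays, which makes it at least 3.97-fold lower in BC_2 OSKM on this scale (limma adjusted p = 0.0136). For 4930571B16Rik the fitted difference of -4.02 became -1.12 with normexp correction and -1.60 in the authors' value table, both without a call.

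For lack of more calls, genes were also named by the smallest p among those whose BC_2 OSKM arrays both lay outside the 6 poor arrays, up to 15 in each direction. Such non-overlap held for 2793 genes above (10.5%) and 2706 below (10.2%), so it is common here, and the added genes did not pass the threshold (adjusted p from 0.0581 to 0.335 in limma). All 30 had the same sign on both slides, which the non-overlap required for naming already fixes.

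Among the higher ones, Acsm4, of the family of medium-chain acyl-CoA synthetases, had -1.93 and -1.88 on the BC_2 OSKM arrays and was not above background on the poor arrays, a difference of at least 15.1-fold (limma adjusted p = 0.0965). Adam32, a member of the ADAM family of membrane proteins known from testis, had 0.13 and 0.16 in BC_2 OSKM against -3.95 to -2.56 on the poor arrays. Dync1i1, an intermediate chain of the motor dynein, had -1.08 and -1.03 in BC_2 OSKM against -3.80 to -3.17 on the poor arrays, and its second probe differed by 1.91 beside the 2.47 of the brightest. Slc22a16, a carnitine and organic cation transporter, was at least 2.66-fold higher, and the claudin family gene Cldn34c1 at least 3.80-fold higher, both without a poor array above background. The remaining ones were the predicted genes Gm14026 (1.92), Gm6325 (3.30, with 1 of 6 poor arrays above background), Gm8130 (1.42) and Gm3346 (1.49), together with 4930402H24Rik (2.52), Clec2i (2.53, with 4 of 6 poor arrays above background), Plekhm3 (1.78) and Phlda2 (1.81).

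Among the lower ones, 2 belong to meiosis in the mouse germline: Tex15, needed for meiotic recombination, had -2.81 and -2.89 in BC_2 OSKM against -0.60 to 0.41 on the poor arrays, and Ccnb1ip1, needed for crossovers, had -2.13 and -2.17 against -0.03 to 0.63. Glrx, a glutaredoxin that removes glutathione from proteins, had -0.33 and -0.53 in BC_2 OSKM against 2.14 to 2.94. Apod, a lipocalin that carries lipids, had 1.55 and 1.45 against 3.48 to 4.52, a difference of -2.45 that its dimmer second probe did not share (0.56). Gng2, a gamma subunit of heterotrimeric G proteins, had 2.06 and 1.95 against 3.27 to 3.86. Cep19, a centrosome and cilium protein, had 0.39 and 0.38 against 2.21 to 2.96. The others were Trmt61b (-2.48), Rnase4 (-2.43), St8sia1 (-1.93), Zgrf1 (-1.76), Slc4a4 (-1.35, with 1 of 2 BC_2 OSKM arrays above background) and the T cell receptor segment Trav13n-1, which was at least 1.74-fold lower with BC_2 OSKM not above background.

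**Figure D1:**
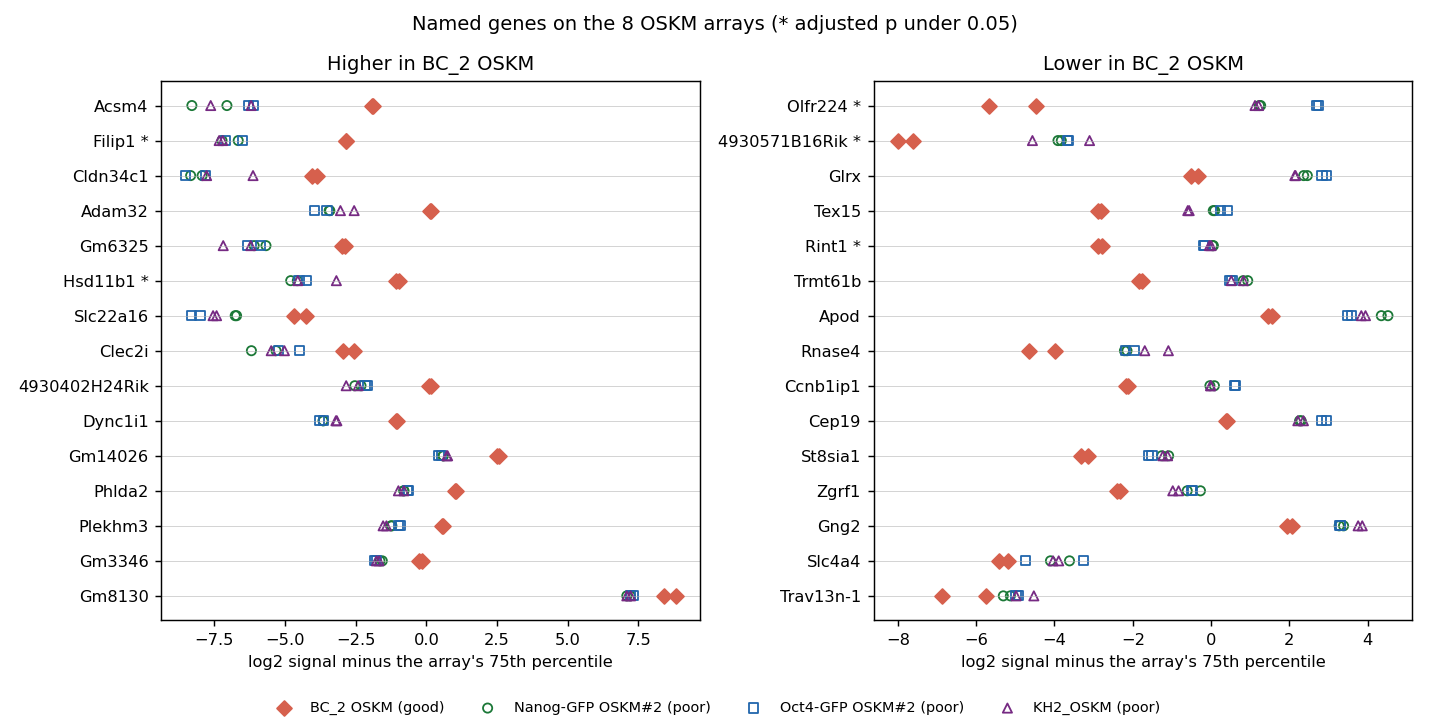
Log2 scaled signal (x axis) of the 15 higher and 15 lower named genes (rows) on each of the 8 OSKM arrays, with BC_2 OSKM as filled diamonds and the poor lines as open symbols. A star marks the 5 genes with an adjusted p under 0.05, and in every row both BC_2 OSKM arrays lie outside the 6 poor arrays, as the rule for naming requires.

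The SNEL and ESC lines, which the rule did not use to rank arrays, placed these genes further. For all 30, BC_2 OSKM lay outside the range of all 9 other lines, while among the 5499 genes whose BC_2 OSKM arrays lay outside the poor arrays this held for 3326 (60.5%). The fit that ranked them borrowed its spread from those lines, so this is a description. Filip1 ran from -6.72 to -6.01 in the ESC lines and from -6.57 to -6.03 in the SNEL lines, beside -2.86 in BC_2 OSKM. Rint1 ran from -0.03 to 0.17 in the ESC lines, and Hsd11b1 from -4.06 to -3.98. In 7 of the 30 genes the poor mean fell inside the range of the ESC lines.

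Genes standing apart were also counted for every line, as a description made after the values were seen. On 37 genes both BC_2 OSKM arrays lay more than 4-fold beyond all 18 other arrays, 19 above and 18 below. The count was 28 in Nanog-GFP OSKM#2 (23 above, 5 below), 21 in KH2_OSKM (20 above, 1 below) and 0 in Oct4-GFP OSKM#2, and it ran from 0 to 15 in the SNEL and ESC lines. The order of lines depended on this cut. At more than 2-fold the count was 134 in BC_2 OSKM and 117 in Nanog-GFP OSKM#2. With no minimum gap it was 2464 in BC_2 OSKM, below the 2811 of KH2_OSKM and the 2831 of Nanog-GFP SNEL#3. Beside genes named above, the BC_2 OSKM set held Obox6, an oocyte homeobox gene (3.06 in BC_2 OSKM and -1.18 in poor lines), Myl3, a myosin light chain of heart and slow muscle (0.37 and -3.50), and Ehd3, a membrane recycling protein (1.54 and -1.56), on the high side. On the low side it held Raet1a, which encodes a ligand of an activating receptor of natural killer cells and which was at least 14.9-fold lower, not above background in BC_2 OSKM, and Cga, the common subunit of glycoprotein hormones (-5.66 in BC_2 OSKM, where 1 of 2 arrays was above background, and -1.84 in poor lines).

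**Figure D2:**
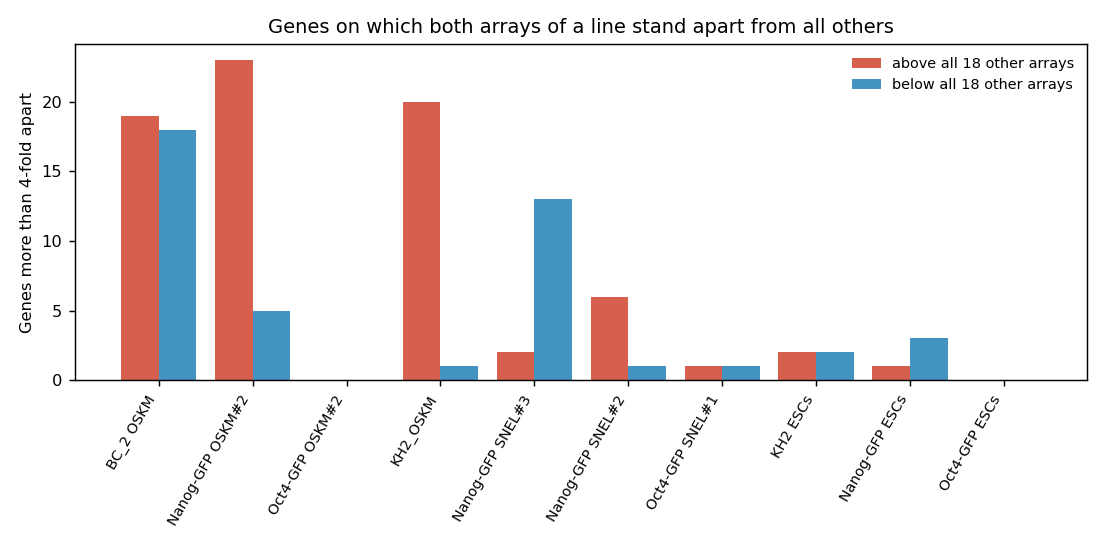
Number of genes (y axis) on which both arrays of a line (x axis) lie more than 4-fold above (red) or below (blue) all 18 other arrays. BC_2 OSKM had 19 above and 18 below, and Oct4-GFP OSKM#2 and Oct4-GFP ESCs had 0.

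At the Dlk1-Dio3 cluster on chromosome 12, BC_2 OSKM lay above the poor lines on most probes of the noncoding stretch. No gene of the cluster passed the threshold over all genes. Shown for context are the promoters of both noncoding RNAs, from RefSeq (GRCm38.p6, 250 bases before to 50 after the start, plus strand, CpG in capitals), and array probes that read them (mm9, in lower case throughout). RefSeq gives Meg3 a further start downstream, whose promoter is not shown.
Meg3 promoter, chr12:109540746-109541045: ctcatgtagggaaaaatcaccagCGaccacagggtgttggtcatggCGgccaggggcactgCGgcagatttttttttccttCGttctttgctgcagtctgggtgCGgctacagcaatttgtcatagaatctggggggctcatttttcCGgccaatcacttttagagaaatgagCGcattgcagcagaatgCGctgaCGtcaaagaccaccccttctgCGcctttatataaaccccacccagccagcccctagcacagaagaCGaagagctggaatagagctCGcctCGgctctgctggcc
Mirg promoter, chr12:109734731-109735030: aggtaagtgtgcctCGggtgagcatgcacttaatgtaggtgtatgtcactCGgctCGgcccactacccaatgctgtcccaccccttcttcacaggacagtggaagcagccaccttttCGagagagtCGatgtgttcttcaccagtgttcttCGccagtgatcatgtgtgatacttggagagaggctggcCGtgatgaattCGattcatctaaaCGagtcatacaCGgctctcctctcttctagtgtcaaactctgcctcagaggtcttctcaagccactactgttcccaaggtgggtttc
Meg3 probe, chr12:110799558-110799617: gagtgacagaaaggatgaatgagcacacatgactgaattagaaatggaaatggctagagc
Meg3 probe, chr12:110809678-110809737: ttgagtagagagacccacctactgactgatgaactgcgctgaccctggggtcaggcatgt
Mirg probe, chr12:110979653-110979712: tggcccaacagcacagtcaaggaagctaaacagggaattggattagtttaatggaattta
Mirg probe, chr12:110987569-110987628: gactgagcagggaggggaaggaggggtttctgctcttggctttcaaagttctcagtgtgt
The motif searched was CG, which reads the same on both strands. The Meg3 promoter held 13 of them, a number that 37.9% of 32851 promoters of that length reach, and the Mirg promoter 10, which 43.5% reach, where the median promoter holds 7. Methylation itself was not measured here, and positions of the builds cannot be set against each other.

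Meg3, a long noncoding RNA read from the maternal copy, had 5.67 and 5.64 on the BC_2 OSKM arrays. The poor arrays had 1.36 and 1.62 in Nanog-GFP OSKM#2, 3.02 and 3.04 in Oct4-GFP OSKM#2, and 0.14 and 0.04 in KH2_OSKM. The 3 poor lines differed widely among themselves but all lay below BC_2 OSKM, whose level was above the 4.39 to 5.09 of the ESC lines and within the 4.05 to 6.54 of the SNEL lines. The difference was 4.12 ± 1.11 (SE; limma adjusted p = 0.746), with 4.16 within slide 1 and 4.08 within slide 2, and the Meg3 probes printed above gave 3.45 and 4.12.

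Mirg, the host transcript of microRNAs at the far end of the noncoding stretch, had 2.23 and 2.36 in BC_2 OSKM. It had -0.53 and -0.41 in Nanog-GFP OSKM#2, 0.95 and 0.99 in Oct4-GFP OSKM#2, and -1.62 and -2.75 in KH2_OSKM, the same order of lines as for Meg3. The difference of 2.85 ± 1.39 (SE; adjusted p = 0.945) came with 2.27 on its second probe, and the ESC lines ran from 2.17 to 3.25. The SNEL lines ran from 1.05 to 4.75. The lowest of them was Oct4-GFP SNEL#1, graded high, which lay near the poor line Oct4-GFP OSKM#2. The paternally read coding genes differed less: Dio3, which inactivates thyroid hormone, had -0.96 and -0.81 in BC_2 OSKM against -2.36 to -1.47 on the poor arrays, and Dlk1, a Notch pathway ligand relative, had -1.11 and -1.30 against -2.99 to -1.39. Dio3os (0.13) and B830012L14Rik (-0.44) overlapped between the groups, and B830012L14Rik gave 0.63 without the slide 2 array of BC_2 OSKM.

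Probes that the array design names by position filled in the rest of the cluster. From Dlk1 to Dio3 (mm9 chr12:110698502-111518851) there were 84 probes. Of the 59 from the first Meg3 to the last Mirg probe, 51 were higher in BC_2 OSKM, with a median of 1.45. Of them 30 lay above all poor arrays and 1 below (Gm2922, -1.11), against 10.5% and 10.2% of all genes. The rest overlapped between the groups. Several of these probes share a name, so their counts are not independent. Of the 15 probes beyond Mirg, 3 were higher, with a median of -0.57, and of the 10 before Meg3, 5 were higher, with a median of 0.14. The probes that separated the groups lay mostly between Meg3 and Mirg. Position names inside it end in F or R, letters that the files do not define: the 33 ending in F had a median of 1.45 with 19 above all poor arrays, and the 16 ending in R a median of 0.09 with 4.

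**Figure D3:**
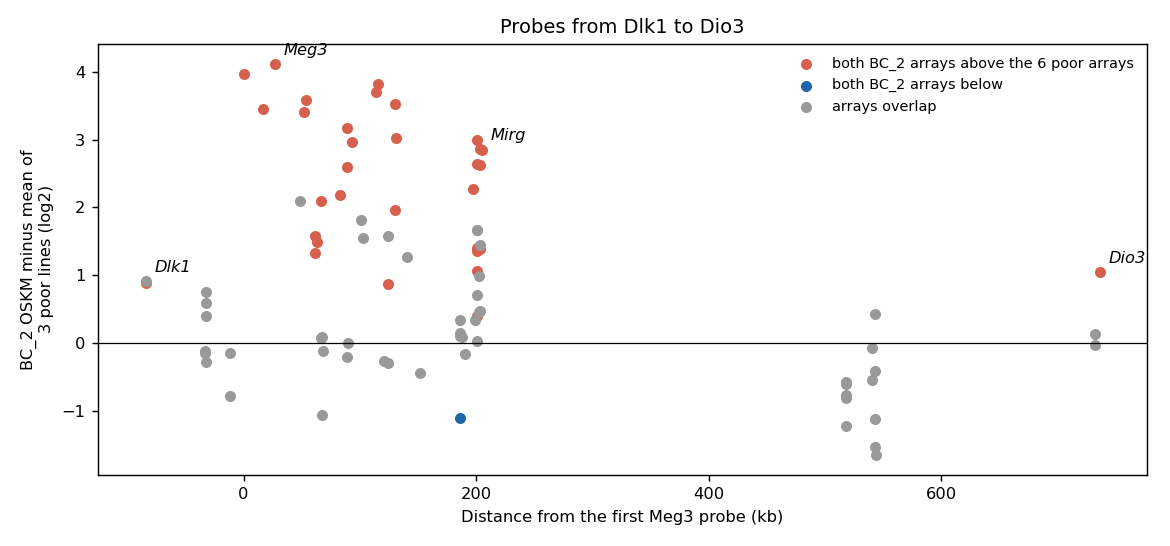
Difference between BC_2 OSKM and the mean of the 3 poor lines (y axis, log2) for 84 probes from Dlk1 to Dio3, by distance from the first Meg3 probe (x axis, kb). Red points, where both BC_2 OSKM arrays lie above the 6 poor arrays, lie mostly between Meg3 and Mirg. Grey points, where the arrays overlap, lie among them, and 1 blue point lies below.

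Outside that cluster, 24 of 42 measured imprinted genes were higher in BC_2 OSKM and 18 lower (median 0.11, against -0.05 over all genes), with 10 above all poor arrays and 5 below (10.5% and 10.2% of all genes). The median was -0.05 without KH2_OSKM. H19, a maternally read noncoding RNA that restrains growth, had 0.07 and -0.05 on the BC_2 OSKM arrays against -3.76 to -3.41 on the poor arrays. The poor lines lay tightly together (SD 0.10, n = 3), below the -2.54 to -0.47 of the ESC lines, and the difference of 3.61 ± 0.98 (SE; adjusted p = 0.749) ran over 7 probes from 0.20 to 3.65. Phlda2, a maternally read gene on the same chromosome that limits placental growth, had 1.02 and 1.03 in BC_2 OSKM against -0.99 to -0.64 on the poor arrays and -0.23 to 0.54 in the ESC lines (difference 1.81 ± 0.32, SE; adjusted p = 0.314). Cdkn1c, an inhibitor of cyclin-dependent kinases from the same domain, had 0.20 and 0.30 against -1.28 to -0.33.

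Other members ran lower. Zdbf2, read from the paternal copy, had -4.82 and -3.87 in BC_2 OSKM against -0.72 to -0.65 in Nanog-GFP OSKM#2 and Oct4-GFP OSKM#2, while KH2_OSKM, at -3.42 and -3.86, came next to it. Asb4, maternally read, had -4.50 and -4.45 against -3.44 to -2.21, while its second probe differed by -0.24 and overlapped between the groups. None of the imprinted genes was called.

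**Figure D4:**
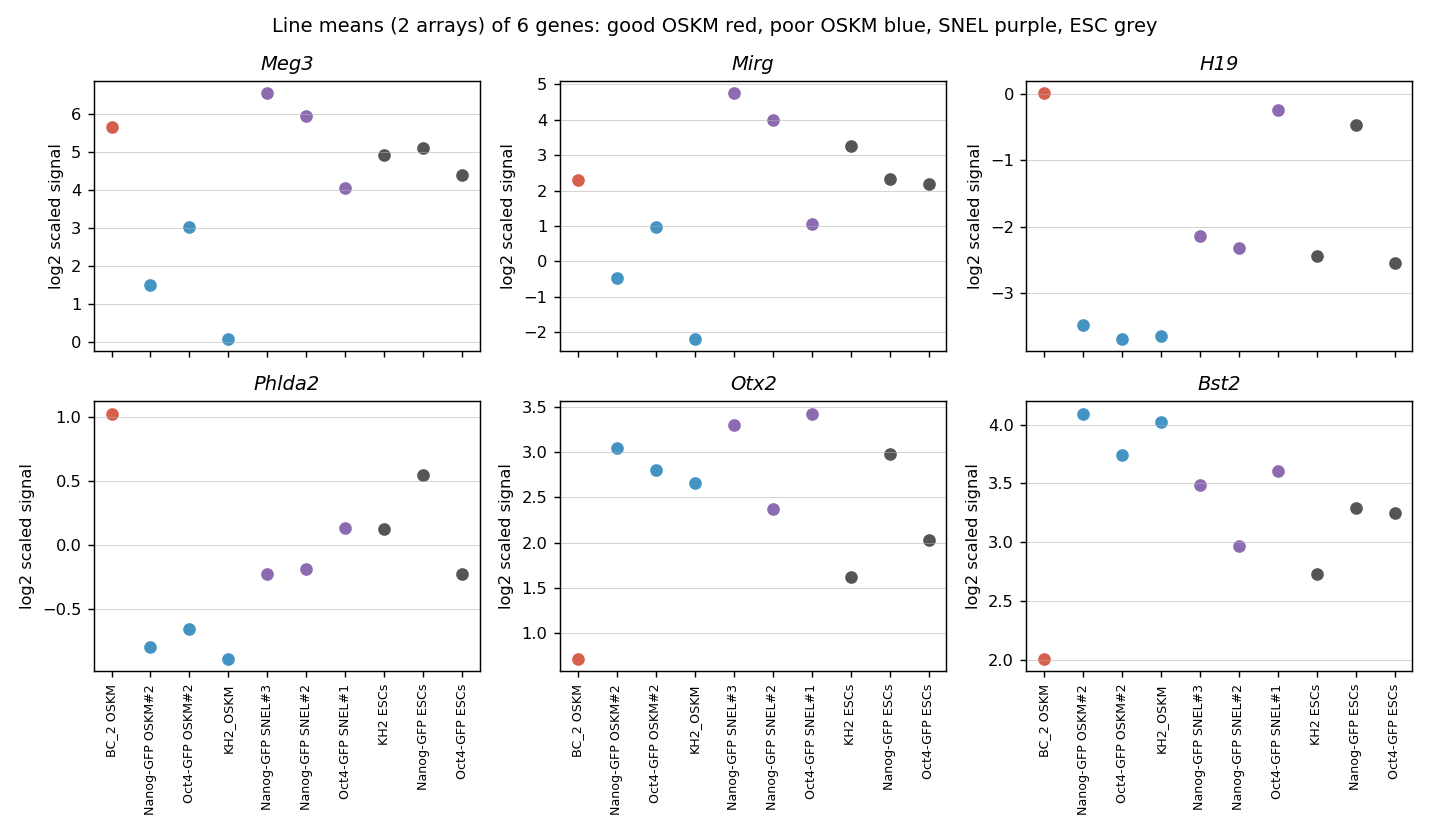
Log2 scaled signal (y axis) of 6 genes in each of the 10 lines (x axis), as the mean of 2 arrays, with good OSKM in red, poor OSKM in blue, SNEL in purple and ESC in grey. The poor lines are lowest for H19 and Phlda2, Meg3 runs from 0.09 to 3.03 in them and is 5.66 in BC_2 OSKM, and BC_2 OSKM is lowest for Otx2 and Bst2.

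Naive and core pluripotency genes separated the groups about as often as genes at large. Of 32 such genes, 5 lay above all poor arrays and 2 below, which is 21.9%, against 20.6% of all genes. In BC_2 OSKM 20 were higher and 12 lower (62.5% higher, against 44.9% of all genes), with a median of 0.07, and 0 were called. Nanog had 6.98 and 7.02 in BC_2 OSKM against 6.54 to 7.12 on the poor arrays, and Esrrb 7.32 and 7.33 against 7.16 to 7.47, a difference of 0.03 that turned to -0.02 with quantile normalization. Pou5f1, which encodes Oct4, had 6.37 and 6.41 against 5.34 to 6.60, Sall4 had 4.21 and 4.35 against 3.86 to 4.28, and Lin28a 3.01 and 2.89 against 2.68 to 4.98. Those 5 overlapped between the groups. Probes of Pou5f1, Sox2, Klf4 and Myc would read the cell's own gene and a transgene alike where both hold the probe's sequence, and the files do not tell them apart.

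The remaining factors stood outside the poor arrays. Sox2 had 3.96 and 3.96 in BC_2 OSKM against 3.65 to 3.78, Klf4 5.01 and 5.14 against 4.16 to 4.96, and Myc -4.46 and -4.49 against -2.25 to -0.65. Myc, with a difference of -2.85 ± 1.59 (SE; adjusted p = 0.945), varied as widely in the ESC lines, from -4.44 to -0.47. Prdm14, a repressor of differentiation in naive cells, had 3.52 and 3.64 against 2.16 to 3.32, Nr5a2, an orphan receptor that binds the Oct4 gene, 3.10 and 3.12 against 3.54 to 4.10, and Gbx2, a target of LIF signalling, -1.42 and -1.41 against -0.97 to 1.15.

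Genes of the primed epiblast, the later pluripotent state of the implanted embryo, were higher in 7 of 18 (38.9%, against 44.9% of all genes), with a median of -0.22 that was -0.0033 against KH2_OSKM alone. Of them 4 lay below all poor arrays and 1 above, where 10.2% and 10.5% of all genes did. Otx2, which drives the exit from the naive state, had 0.72 and 0.71 on the BC_2 OSKM arrays. The poor arrays had 3.09 and 3.00 in Nanog-GFP OSKM#2, 2.83 and 2.77 in Oct4-GFP OSKM#2, and 2.72 and 2.60 in KH2_OSKM. BC_2 OSKM thus lay below every poor array, and also below the 1.62 to 2.98 of the ESC lines (difference -2.12 ± 0.58, SE; limma adjusted p = 0.749). Tcf15 (0.78 and 0.66 against 1.33 to 1.78) and Zic2 (1.20 and 1.02 against 1.58 to 2.02), both transcription factors of that state, were lower too, and Fgf5 differed by 0.34.

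Dnmt3b, a de novo DNA methyltransferase that rises in the primed state, had 1.94 and 2.06 in BC_2 OSKM. It had 5.68 and 5.61 in Nanog-GFP OSKM#2, 4.91 and 5.07 in Oct4-GFP OSKM#2, and 2.45 and 2.46 in KH2_OSKM, so that KH2_OSKM lay near BC_2 OSKM and the other 2 far above. Its 3 probes differed by -2.49 to -2.37 (adjusted p = 0.945). Of 22 genes that write, erase or keep DNA methylation, 10 were higher and 12 lower (median -0.12), and 6 lay below all poor arrays (10.2% of all genes) and 0 above. These included Setdb1, a histone methyltransferase that keeps imprints and transposons silent (1.63 and 1.49 against 1.75 to 2.42), and Zfp57, a zinc finger protein that guards imprints (2.40 and 2.09 against 2.42 to 3.02). The second Zfp57 probe differed by -0.42 and overlapped between the groups. Dnmt1 (0.05), Uhrf1 (0.11), Tet1 (-0.09) and Dnmt3l (-0.26) differed little.

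Neuroectoderm genes were higher in 4 of 14 and lower in 10 (28.6% higher, against 44.9% of all genes; median -0.60), with 5 below all poor arrays (10.2% of all genes) and 0 above. Tubb3, the neuronal beta tubulin, had -1.45 and -1.56 in BC_2 OSKM against 1.74 and 1.80 in Nanog-GFP OSKM#2, 2.13 and 2.19 in Oct4-GFP OSKM#2, and -1.25 and -1.06 in KH2_OSKM. Sox21 (-1.61 and -1.76 against -1.47 to 0.52), Sox3 (-1.57 and -1.13 against -1.04 to 0.29) and the microtubule protein gene Map2 (-4.94 and -5.17 against -4.73 to -3.43) followed, the first close to KH2_OSKM. In these bulk samples fewer cells of a type and less RNA per cell cannot be told apart. The log2 of the summed level of the 4 neural markers, of which 3 were detected on both BC_2 OSKM arrays and 3 on all poor arrays, was -0.23 in BC_2 OSKM, 0.40 in KH2_OSKM and 2.07 and 2.33 in the other poor lines, and their part in the differences was not tested.

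Signalling genes that feed the naive and primed states differed member by member. Of 31 genes of BMP, Nodal and FGF signalling, 19 were higher and 12 lower (median 0.15, and -0.05 without KH2_OSKM). Bmp4, a ligand that supports self-renewal of mouse ESCs, had -2.34 and -2.25 in BC_2 OSKM against 1.26 and 1.24 in Nanog-GFP OSKM#2, 3.06 and 3.06 in Oct4-GFP OSKM#2, and -0.17 and -0.28 in KH2_OSKM. Its difference of -3.66 ± 1.37 (SE; adjusted p = 0.945) stood beside -1.36 for Id1 and -1.71 for Id3, targets of BMP signalling, of which neither separated the arrays. The growth factor carrier Fgfbp1 was lower (-5.49 and -5.98, of which 1 array was above background, against -3.87 to -1.87). Among receptors, Fgfr1 was lower (3.01 and 3.18 against 3.63 to 4.14) and Fgfr3 higher (1.01 and 1.09 against -3.26 to -0.06). A dimmer probe of Fgfr1 differed by -0.18 and overlapped between the groups.

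Targets of Wnt signalling were lower in 11 of 16 (median -0.31), with 3 below all poor arrays and 1 above (10.2% and 10.5% of all genes). Sp5, a transcription factor that Wnt induces, had -1.28 and -1.27 in BC_2 OSKM against -0.75 to 2.32, and Notum, a secreted inhibitor, 2.33 and 2.13 against 2.52 to 4.22. Tcf7, a nuclear effector of the pathway, was higher (1.37 and 1.18 against 0.48 to 1.16). ERK targets were lower in 12 of 18 (median -0.16, and 0.01 without Nanog-GFP OSKM#2). Only Myc and Etv5 (6.30 and 6.36 against 6.41 to 7.13) separated the arrays, 11.1% of the list against 20.6% of all genes.

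Genes of fibroblasts and matrix were higher in 20 of 31 (64.5%, against 44.9% of all genes; median 0.48), with 8 above all poor arrays and 3 below (10.5% and 10.2% of all genes). Against KH2_OSKM alone the median was -0.06. The collagen genes Col1a1 (-0.69 and -0.72 against -3.79 to -1.32), Col1a2 (-1.61 and -1.69 against -3.72 to -1.69) and Col3a1 (-3.40 and -3.26 against -5.60 to -3.74, with 5 of 6 poor arrays above background) were higher in BC_2 OSKM, with adjusted p of 0.945 each in limma. All lay below the ESC lines, where Col3a1 ran from -0.97 to 0.07. Vim, an intermediate filament gene, went the other way, with 3.05 and 2.83 against 3.40 to 5.38.

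Lineage genes of the early embryo were mixed. Of 20 primitive endoderm genes 11 were higher (median 0.16, and -0.0014 without Nanog-GFP OSKM#2). In that list 4 lay above all poor arrays and 2 below (10.5% and 10.2% of all genes). Those above included Pdgfra, a growth factor receptor (-3.24 and -3.32 against -5.88 to -4.20, with 5 of 6 poor arrays above background, limma adjusted p = 0.769). They also included Amn, a part of the endocytic receptor complex of visceral endoderm (-0.00 and -0.08 against -3.42 to -0.62), and Srgn (0.81 and 0.72 against -1.26 to -0.06). Gata4 (-0.10) and Gata6 (0.53), which define that lineage, did not separate the arrays. Trophoblast genes were higher in 10 of 17 (median 0.30, and -0.10 against KH2_OSKM alone). Of them 2 lay above all poor arrays and 0 below, where 10.5% and 10.2% of all genes did. Those 2 were Plac8 (-0.65 and -0.67 against -2.98 to -1.33) and the imprinted Ascl2 (4.17 and 4.16 against 3.18 to 3.78). The defining Cdx2 differed by -1.84 without separating the arrays. The 12 mesendoderm genes had a median of 0.07, and -0.21 without Nanog-GFP OSKM#2.

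**Figure D5:**
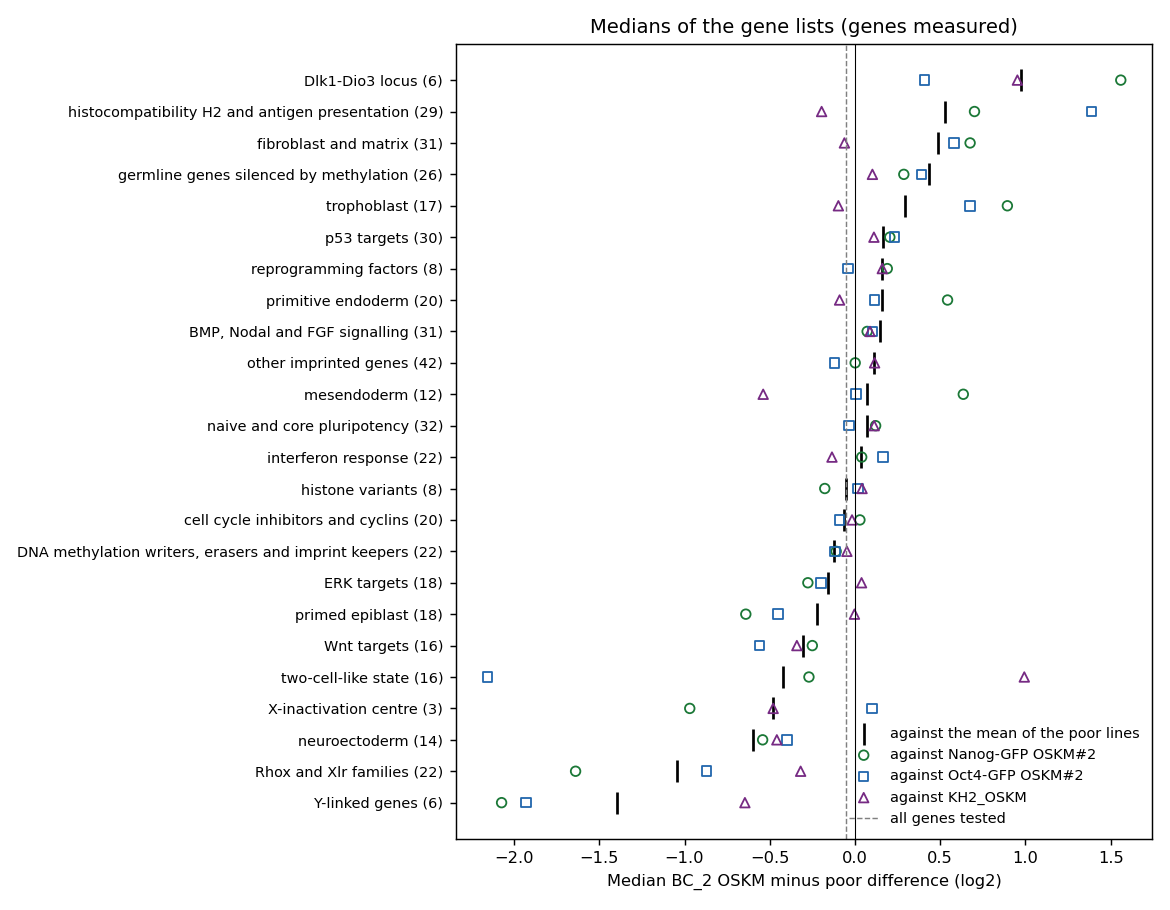
Median difference (x axis, log2) of BC_2 OSKM from the mean of the poor lines (bars) and from each poor line (open symbols) over the measured genes of 24 lists, with the median of all genes dashed. The sign is the same against all 3 poor lines for 10 lists, and the two-cell-like list runs from -2.16 against Oct4-GFP OSKM#2 to 0.99 against KH2_OSKM.

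Of 22 measured Rhox and Xlr genes, X-linked homeobox and lymphocyte-regulated families with tissue-restricted roles in placenta, gonads and thymus, 20 were lower in BC_2 OSKM, against 14689 of the 26646 genes tested. Their median was -1.04, with -1.64 against Nanog-GFP OSKM#2, -0.87 against Oct4-GFP OSKM#2 and -0.32 against KH2_OSKM, and 6 lay below all poor arrays (10.2% of all genes) and 0 above. Rhox6 had -2.19 and -2.23 in BC_2 OSKM against -1.04 to 0 on the poor arrays (limma adjusted p = 0.856). Rhox13 had -1.35 and -2.89 against -1.22 to 0.30, Rhox4a -4.84 and -4.41 against -3.54 to -2.41, and Xlr3b -1.98 and -2.32 against -1.71 to 1.87. The ESC lines had no common place among these: all 3 lay above BC_2 OSKM for Rhox6 and below it for Rhox13, Rhox4a and Xlr3b. Members of these families are near copies of each other, so a probe can read several, and their counts are not independent.

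Germline genes that DNA methylation silences in other tissues were higher in 18 of 26 (69.2%, against 44.9% of all genes; median 0.43), with 5 above all poor arrays and 3 below (10.5% and 10.2% of all genes). Mael, a piRNA pathway gene, had 2.84 and 2.90 in BC_2 OSKM against 0.82 to 1.47, and Sycp1, of the synaptonemal complex, -2.34 and -2.44 against -4.64 to -3.18. Tex101 (-3.31 and -3.16 against -2.36 to -1.52) and Fkbp6 (0.70 and 0.71 against 0.97 to 2.14) were lower. Genes of the two-cell-like state, a rare state of ESC cultures that reads genes of the mouse embryo at the stage of first genome activation, were lower in 12 of 16, but the median of -0.42 became 0.41 without Oct4-GFP OSKM#2. Only Zfp352 separated the arrays (6.25% of the list, against 20.6% of all genes), on the higher side, with 2.59 and 3.00 against 1.86 to 2.50.

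Of 30 p53 targets, 21 were higher and 9 lower in BC_2 OSKM (median 0.17), and 11 lay above all poor arrays and 2 below (10.5% and 10.2% of all genes). Trp53inp1, which promotes p53 activity, had 4.35 and 4.38 in BC_2 OSKM against 3.45 to 3.66, and both of its probes differed by 0.82. Pmaip1, which encodes the cell death protein Noxa, had 3.22 and 3.28 against 1.68 to 2.56, and the death receptor gene Fas -3.60 and -3.75 against -5.65 to -4.02. Cdkn1a, the p21 cell cycle inhibitor, had 4.88 and 4.74 against 3.60 to 4.72, but its other probes differed by -0.54 and 2.03 beside 0.65. Cdkn1b, the p27 inhibitor, had 3.50 and 3.48 against 2.45 to 3.28. Cdkn2a, which encodes p16 and Arf and is known as a barrier to reprogramming, was lower, with 3.06 and 3.18 against 3.63 to 4.03 (limma adjusted p = 0.782) and 3.62 to 3.80 in the ESC lines. Mki67, which marks dividing cells, differed by -0.03 ± 0.27 (SE) and overlapped between the groups.

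Histocompatibility and antigen presentation genes were higher in 22 of 29 (75.9%, against 44.9% of all genes; median 0.53), with 8 above all poor arrays and 2 below (10.5% and 10.2% of all genes), but the median against KH2_OSKM alone was -0.20. H2-T9, a nonclassical class I gene, had 0.49 and 0.35 in BC_2 OSKM against -3.70 to -3.54 in Nanog-GFP OSKM#2 and Oct4-GFP OSKM#2 and -0.98 and -1.11 in KH2_OSKM (difference 3.19 ± 0.97, SE; adjusted p = 0.874). H2-T10 had -0.36 and -0.45 against -4.13 to -1.27, and the class II gene H2-Ab1 had 2.44 and 2.44 against -0.43 to 2.01. H2-Q1 had -3.06 and -3.02 in BC_2 OSKM, with 1 of 6 poor arrays above background (-6.62 to -5.00). These genes differ in sequence between mouse strains and copies, and the labels give no strain, so levels and probe match cannot be told apart.

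Interferon response genes were evenly split, 11 higher and 11 lower, with a median of 0.03 that turned to -0.06 without Nanog-GFP OSKM#2. Bst2, which encodes tetherin and holds budding virus at the cell surface, had 2.04 and 1.97 on the BC_2 OSKM arrays against 4.10 and 4.09 in Nanog-GFP OSKM#2, 3.75 and 3.74 in Oct4-GFP OSKM#2, and 3.97 and 4.08 in KH2_OSKM. The poor lines lay close together and the ESC lines between, at 2.73 to 3.29 (difference -1.95 ± 0.34, SE; limma adjusted p = 0.314). Oasl1, an antiviral protein that restrains interferon production, had 0.30 and 0.45 against 1.68 to 2.08, and Ddx58, the RNA sensor RIG-I, 1.24 and 1.30 against 1.35 to 3.40. Ifih1, the RNA sensor MDA5, was above background on both BC_2 OSKM arrays and on no poor array, at least 3.65-fold higher (adjusted p = 0.945).

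H2ax, the gene of the histone variant H2A.X, had 6.31 and 6.43 in BC_2 OSKM against 6.25 to 7.26 on the poor arrays. KH2_OSKM lay at or below BC_2 OSKM and the other 2 lines above, so the groups overlapped (difference -0.42 ± 0.37, SE). Of 8 histone variant genes 3 were higher and 5 lower (median -0.05, and 0.02 without Nanog-GFP OSKM#2). Among the 8, 2 lay above all poor arrays and 1 below (10.5% and 10.2% of all genes). H2az2 (6.98 and 6.98 against 6.53 to 6.84) was among those above, and H2az1 (7.68 and 7.69 against 7.80 to 8.36) was the 1 below.

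All 6 measured Y-linked genes were lower in BC_2 OSKM, against 14689 of the 26646 genes tested. Of them 3 lay below all poor arrays (10.2% of all genes). Eif2s3y, on the Y chromosome, had -2.98 and -3.26 in BC_2 OSKM, against 2.42 and 2.37 in Nanog-GFP OSKM#2, 2.98 and 3.04 in Oct4-GFP OSKM#2, and -1.21 and -1.19 in KH2_OSKM, and it ran from -8.10 to 1.43 in the ESC lines. Ddx3y followed, with -2.98 and -3.13 against -2.86 to 0.80. Uty was above background on neither BC_2 OSKM array but on 4 of 6 poor arrays. Zfy1 was above background on neither BC_2 OSKM array and on 1 of 6 poor arrays, the groups overlapped, and it was 0.13 higher in BC_2 OSKM with quantile normalization. Sry and Ube1y1 overlapped between the groups, with differences of -0.33 and -0.29, and Sry turned to 0.0077 without KH2_OSKM. The dimmer second probe of Ube1y1 was 0.13 higher in BC_2 OSKM. Xist was not among the genes tested. Of the X-inactivation centre, Rlim, an activator of Xist in the mouse, had -1.77 and -1.64 against -1.25 to -0.82.

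Chromosome medians over 21841 genes detected on all 8 arrays lay between -0.07 and 0.03 for every chromosome but 8, where BC_2 OSKM was lower by a median of -0.16 over 1198 genes (all genes -0.02). It was -0.29 against Nanog-GFP OSKM#2, -0.07 against Oct4-GFP OSKM#2 and -0.11 against KH2_OSKM. Set against the ESC lines, chromosome 8 lay at -0.15 in BC_2 OSKM and at 0.16 in Nanog-GFP OSKM#2, where each line's own median was -0.08 and -0.06. Within slides the difference was -0.15 and -0.16. Adam32, Tex15, Tubb3, Bst2 and Fgfr1, described above, lie on that chromosome.

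Over all genes tested, the line nearest to BC_2 OSKM was Nanog-GFP ESCs, at a root mean square log2 difference of 0.642. In the authors' value table it was level with KH2_OSKM (0.444 and 0.443), and with quantile normalization the 2 lay at 0.618 and 0.691. In the main processing KH2_OSKM followed at 0.675 and Oct4-GFP SNEL#1 at 0.701. Further off were Oct4-GFP OSKM#2 at 0.851, Nanog-GFP OSKM#2 at 0.883, Oct4-GFP ESCs at 0.923 and KH2 ESCs at 0.972. The poor lines lay 0.670 (Nanog-GFP OSKM#2 and Oct4-GFP OSKM#2), 0.859 and 0.891 apart from each other, so KH2_OSKM was nearer to BC_2 OSKM than to either other poor line. Within slides that order held on slide 2 (0.765 for KH2_OSKM, 0.929 and 0.954 for the others), while on slide 1, which holds the KH2_OSKM array with the most probes above background, the 3 distances were 0.891, 0.887 and 0.913. KH2_OSKM was also the poor line nearest to BC_2 OSKM for 49.7% of the genes. The share was 62.5% among genes whose BC_2 OSKM arrays lay outside the poor arrays, and 65.8% among the 76 named from the lists, most of which were chosen for lying outside. BC_2 OSKM lay inside the range of the ESC lines for 35.1% of the genes, against 31.1% in KH2_OSKM, 42.4% in Nanog-GFP OSKM#2 and 46.7% in Oct4-GFP OSKM#2.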

How the data were processed

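Per the labels, cells were grown in 2i medium without feeders and RNA was prepared with RNeasy columns. Per the file headers, the deposited scanner files (array design 028005, 1 colour, Feature Extraction 10.1.1.1, probe positions of mm9) hold intensity values of which the processed signal, already corrected for background with spatial and multiplicative detrending, was used. The deposited value table holds log2 values, and the submitters' processing notes name limma without a version. The column medians of that table ran from 6.2663 to 6.2801 and its ranks followed the median signal (Spearman correlation 1, rounded), so it was taken as uncentred, with its normalization not given in the sources used here. 

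Of 62976 spots, 59305 were not controls. Spots of 1 probe were averaged (55681 probes), scanner outlier flags were set to missing (563 probes), and no probe was saturated. The log2 signal was scaled by each array's 75th percentile. Probes well above background on both arrays of at least 1 of 10 lines were kept (37866), and the brightest stood for each gene (26646 genes). Levels and non-overlap given for a gene are those of its brightest probe. Beside the genes where the text says so, a dimmer probe overlapped between the groups for Dlk1, Plac8, Sox21, Map2, Ddx58, Cdkn1b and H2az2. Where a flag left 1 array of a line (52 values among the 8 OSKM arrays), the line mean used the other. Symbols were updated through RefSeq accessions for 26413 probes, of which 3093 changed.

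Limma 3.58.1 in R 4.3.3 fitted 5 groups to the means of 10 lines, with Benjamini-Hochberg adjustment over all genes at 0.05. BC_2 OSKM is 1 line and was assumed to vary like the groups with several. A run on simulated data drew BC_2 OSKM with the spread estimated from the other groups, so it could not test that assumption. Figures and counts were made in Python 3.11.15.

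The lines and gene lists were chosen with earlier results of these data known. Genes were named as the 15 largest rises and falls among calls with non-overlapping arrays, filled up by the smallest p among genes with non-overlapping arrays whose brighter group was above background on every array, skipping probes without a gene symbol. Added were up to 4 list members with non-overlapping arrays and the largest differences, and always the reprogramming factors, the Dlk1-Dio3 genes, H2ax, Xist and Y-linked genes. Other list members, genes standing apart from all other lines, and calls without a symbol are given as examples chosen after their values were seen. Alternatives changed the samples, replicate and slide blocks, normalization, background correction, filter and probe choice, and left out each line or array of BC_2 OSKM in turn. The sequence of 1 array probe is not reported here.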

Additional observations from a re-analysis of the deposited data

Results flagged for a closer look

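Over 118 measures on the 6 poor arrays (117 named genes and the share of probes above background), 3 had an extreme array whose gap to its nearest neighbour took up more of the range than Dixon's 95% critical value for 6 samples allows. For independent samples chance flags about 1 in 20 such groups. The 6 poor arrays are not independent, because arrays of the same line tend to lie near each other. Most of the named genes were also chosen by rules that used these arrays. The 3 of 118 can therefore not be set against that rate. All 3 were the KH2_OSKM array of slide 1, each time as the highest value: -3.18 for Hsd11b1, against -4.80 to -4.25 on the other poor arrays; -6.13 for Cldn34c1, against -8.51 to -7.77; and -3.25 for Sry, against -5.32 to -5.14. That array also had the largest share of probes above background. Without it, Hsd11b1 stayed called with an adjusted p of 0.0064 in limma.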

How the results depend on the processing

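The 10 calls of the report (4 rises, 6 falls) rest on 1 good line and on a spread shared with the other groups. They became 0 with the OSKM lines alone (1106 genes at an unadjusted p under 0.05) and 0 with only genes above background on all 8 arrays (745). Counting arrays of a line as samples gave 128 calls with line as a random block (correlation within a line 0.70), 98 with slide as a block and 27 for the 8 OSKM arrays without replicate block. With the replicate block, where the replicate number is the slide, there were 8 calls, of which 3 were among the 10. The difference between the first and the second array correlated from 0.0451 to 0.34 between the 4 OSKM lines, across genes. Leaving out single lines or single BC_2 OSKM arrays gave 0 to 45 calls, and leaving out the KH2_OSKM array of slide 1, chosen after seeing the data, gave 19. The other 7 alternatives gave 9 to 13. Of 3138 values of the 117 named genes, 2983 held, 51 lost the call and 81 gained one. Values with a test held where direction and side of the threshold stayed the same. Values within 1 slide, which have no test, held where they moved by less than the SD between the 3 poor lines, and 16 moved by at least that SD. For uncalled genes the sign of the values within 1 slide was not checked. A further 7 values with a test turned sign, none of them called. Esrrb was -0.023 with quantile normalization and ran from -0.024 (without Nanog-GFP OSKM#2) to 0.091 with 1 line or array left out, Dio3os from -0.15 (without Nanog-GFP OSKM#2) to 0.43 with -0.018 without the first BC_2 OSKM array, B830012L14Rik from -1.50 to 0.63 (without the second), and Sry from -0.51 to 0.0077 (without KH2_OSKM). Zfy1 was 0.13 with quantile normalization. The causes were not tested. Of 24 list medians, 16 kept their sign in all alternatives run. Of 84 alternative chromosome medians, 27 moved by at least the SD over the 3 poor lines. Of 24 alternative distances to BC_2 OSKM, 10 moved by at least the SD of its distances to the other lines. Signal over background limits dim genes: the fitted differences of Filip1 and 4930571B16Rik shrank with normexp correction (1.48 and -1.12) and in the value table (2.01 and -1.60).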
